A study of Zea mays with 11 samples.

Results

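Whole maize seed was compared with ear leaf for cytosine methylation at every nuclear gene, in the gene body and in the region upstream of it. The comparison used 3 of the 11 bisulfite sequencing libraries of the series: whole seed of the inbred line Mo17 at 3 and at 5 days after pollination, and 1 library of ear leaf at 13 days. The 8 libraries of dissected endosperm were in neither group. Their levels are given beside those of seed and leaf, sort the genes into classes and enter a stricter fit on all 11 libraries. All plants were field grown and self-pollinated Mo17, so no genotype or treatment separates the groups, but tissue and age differ together. The 2 seed libraries are of different age, no stage has a replicate, and the labels do not say how many plants went into a library. Of 39656 gene models in the tables, 39475 are nuclear and were all taken as members.

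DNA methylation in plants occurs in 3 sequence contexts, CG, CHG and CHH, where H is any base other than G. CG methylation is copied at replication by maintenance methyltransferases and is common in the bodies of broadly expressed genes. CHG methylation is kept by chromomethylases together with histone H3 lysine methylation and marks transposons and silent genes. CHH methylation has to be set anew after each replication, in maize largely by the small-RNA-directed pathway that acts on short stretches next to genes. A young whole seed holds embryo, endosperm and a large part of maternal tissue, whereas an ear leaf is a mature green organ. A level in such bulk samples is an average over all their cells, so fewer cells of a type and a lower level within cells cannot be told apart.

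The tables held 154315521 cytosine calls in 3-day seed, 195795323 in 5-day seed and 143230165 in leaf. Methylation tables cannot be checked against expressed marker genes, but the share of calls from organelle genes can be read. The 57 chloroplast gene models took 0.0947% and 0.144% of the calls in seed, against 0.885% in leaf. The 124 mitochondrial models took 1.33% and 1.43% in seed, against 0.577% in leaf. The leaf share of chloroplast calls was thus 9.35 and 6.14 times that of the seed libraries, and the seed shares of mitochondrial calls were 2.30 and 2.48 times that of leaf.

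The mean level over genes differed little between the tissues. The gene body mean was 31.8% and 30.9% in seed and 32.6% in leaf for CG, and 22.6% and 21.8% in seed and 22.14% in leaf for CHG. For gene body CHH it was 2.46% and 2.19% in seed, against 1.97% in leaf. Both seed libraries were therefore below leaf in body CG and above it in body CHH, while leaf lay between them in body CHG. Other averages gave another order: over all calls pooled, body CG was 47.6% and 45.0% in seed and 47.1% in leaf, and over the median gene, body CHG was 3.90% and 3.78% in seed and 3.47% in leaf.

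In the upstream regions, the mean CG level was 63.1% and 61.5% in seed and 63.8% in leaf. The mean upstream CHG level was 55.9% and 54.4% in seed and 56.0% in leaf. The mean upstream CHH level was 6.16% and 5.24% in seed and 5.22% in leaf. The 5-day seed mean for upstream CHH was 0.0184 percentage points above leaf, so this difference came almost wholly from the 3-day library. Upstream regions at 80% or more were fewer in seed, at 15826 and 14284 genes in CG against 16395 in leaf, and at 8760 and 7128 in CHG against 10100 in leaf.

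As a mean over both seed libraries, the difference from leaf was -1.28 ± 0.585 percentage points in body CG and -1.46 ± 1.16 in upstream CG (SD of the seed libraries, n = 2). It was 0.080 ± 0.563 in body CHG and -0.84 ± 1.0 in upstream CHG, both smaller than the spread between the seeds. Over all calls pooled the upstream CG difference was -0.715 points and the upstream CHG difference -0.256 points. It was 0.358 ± 0.188 in body CHH and 0.478 ± 0.649 in upstream CHH. No test was run on these means, and they are descriptions of the 3 libraries. The chloroplast gene bodies, often used as a baseline for unconverted cytosines, had a CHH level of 0.956% and 0.828% in seed, against 0.669% in leaf. Their CG level was 6.60% and 5.79% in seed against 2.26% in leaf, so the tissues differed there too. With the chloroplast CHH level subtracted in each library, the body CHH difference was 0.140 percentage points. That level rested on 13 and 15 gene models in seed and 16 in leaf, those with a methylated count above 0. Mitochondrial gene bodies had a CHH level of 0.787% and 0.818% in seed, against 0.716% in leaf, a smaller gap. No correction with the mitochondrial level was run.

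**Figure D1:**
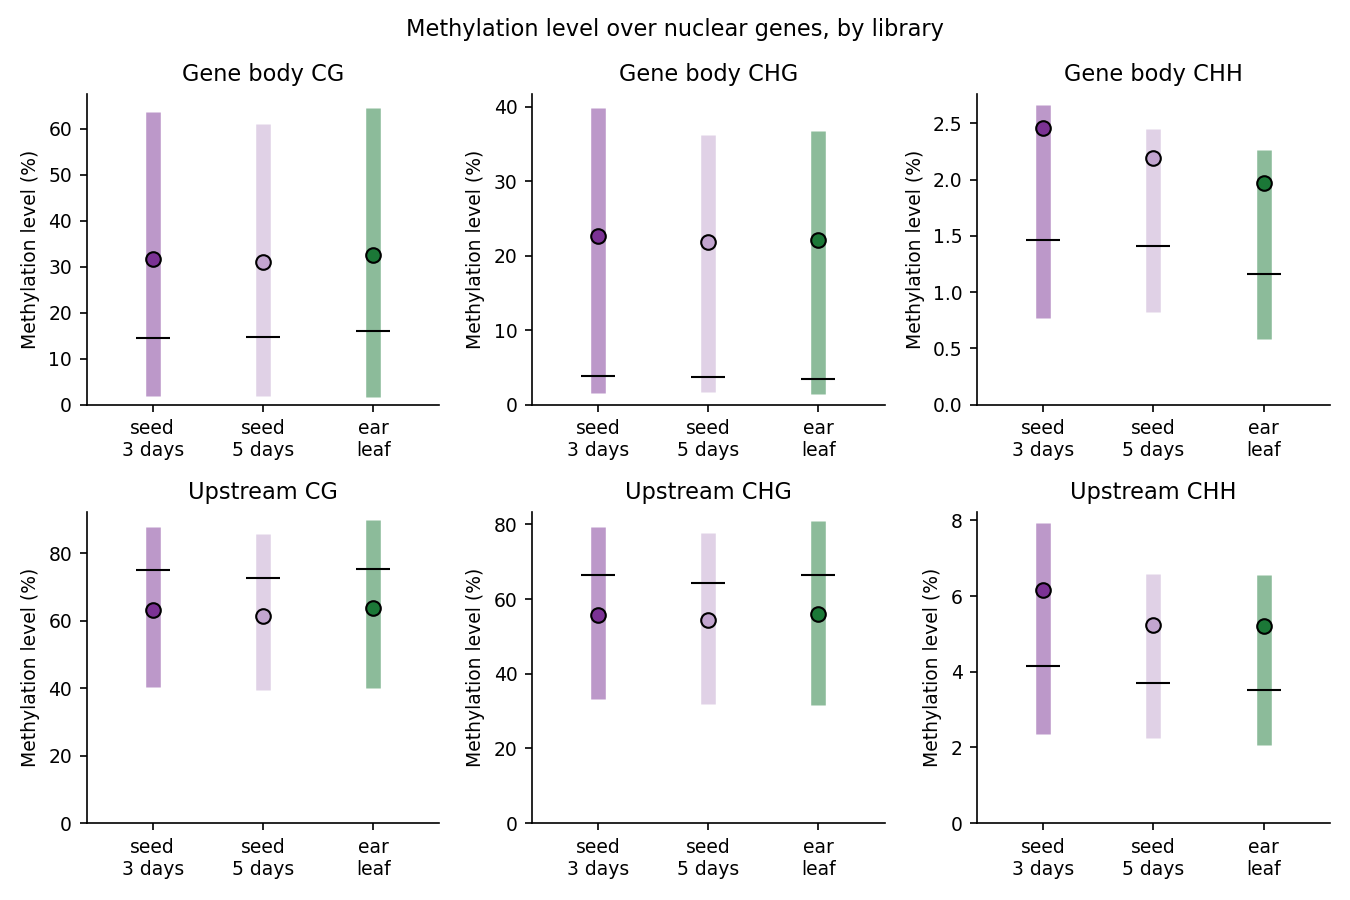
Methylation level in percent over the nuclear genes tested, for 3-day seed, 5-day seed and ear leaf, in 6 panels by region and context. Circles are means, short lines are medians and bars run from the lower to the upper quartile; the quartile ranges of the 3 libraries overlap in every panel.

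Single genes were read from the calls. A gene was called where each seed library differed from leaf by Fisher's exact test (two-sided, Benjamini-Hochberg adjusted p under 0.05 over all genes tested), in the same direction, and by at least 20 percentage points for CG and CHG or 5 points for CHH. At least 10 calls were needed in each of the 3 libraries. The test compares libraries and not tissues, both comparisons share the leaf library, and cytosines on 1 read are not independent, so its p-values are too small as statements about tissue.

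In the gene body, 208 of 33393 genes were called higher in seed in CG (0.623%) and 379 lower (1.13%). In body CHG, 169 of 33654 were called higher (0.502%) and 92 lower (0.273%). In body CHH, 209 of 34403 were called higher (0.608%) and 163 lower (0.474%). Body CG calls leaned towards lower levels in seed, with 35.4% of them higher, and body CHG calls towards higher levels, with 64.8% higher. The lean in body CHG was absent from the 5-day library taken by itself, which had 299 genes higher and 347 lower than leaf, against 449 higher and 230 lower in 3-day seed.

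Upstream, 527 of 37079 genes were called higher in seed in CG (1.42%) and 515 lower (1.39%). In upstream CHG, 405 of 37041 were called higher (1.09%) and 346 lower (0.934%). In upstream CHH, 824 of 38112 were called higher (2.16%) and 742 lower (1.95%). These splits were near even, and their direction moved with the processing. With the median difference over genes set to 0, upstream CG gave 636 higher and 400 lower, upstream CHG 443 and 305, and upstream CHH 743 and 822. Among genes with balanced call numbers, defined below, upstream CG gave 297 higher and 351 lower and upstream CHG 188 and 224.

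In all, 3849 of the 38676 genes tested in any combination were called in at least 1 of the 6 combinations of region and context (9.95%). Of these, 3218 were called in 1 combination, 542 in 2 and 89 in 3 or more. Only higher calls were found in 1861 genes, only lower calls in 1913 and both directions in 75. Most of the called genes thus passed the thresholds in a single region and context. This does not mean that the other contexts were alike in seed and leaf. At genes called higher in upstream CG, the median upstream CHG difference from leaf was 24.05 points in 3-day and 20.57 points in 5-day seed.

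The seed libraries also differed from each other. With the same thresholds on 1 pair of libraries, 1008 genes differed between 5-day and 3-day seed in body CG (3.02%), against 1466 between 3-day seed and leaf (4.39%) and 1410 between 5-day seed and leaf (4.22%). In body CHG the 3 counts, in the same order, were 452 (1.34%), 679 (2.02%) and 646 (1.92%), and in body CHH they were 924 (2.69%), 1160 (3.37%) and 842 (2.45%). In upstream CG they were 2145 (5.78%), 2700 (7.28%) and 2609 (7.04%), and in upstream CHG 1570 (4.24%), 2104 (5.68%) and 1983 (5.35%). In upstream CHH, 4085 genes differed between the seed libraries (10.7%), 4721 between 3-day seed and leaf (12.4%) and 3687 between 5-day seed and leaf (9.67%). For CHH, the seeds differed from each other in more genes than 5-day seed differed from leaf. Of the upstream CHH differences, 3465 were higher and 1256 lower in 3-day seed than in leaf, 1682 higher and 2005 lower in 5-day seed than in leaf, and 850 higher and 3235 lower in 5-day than in 3-day seed. The lean towards higher upstream CHH was thus in the 3-day library and not in the 5-day one.

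**Figure D2:**
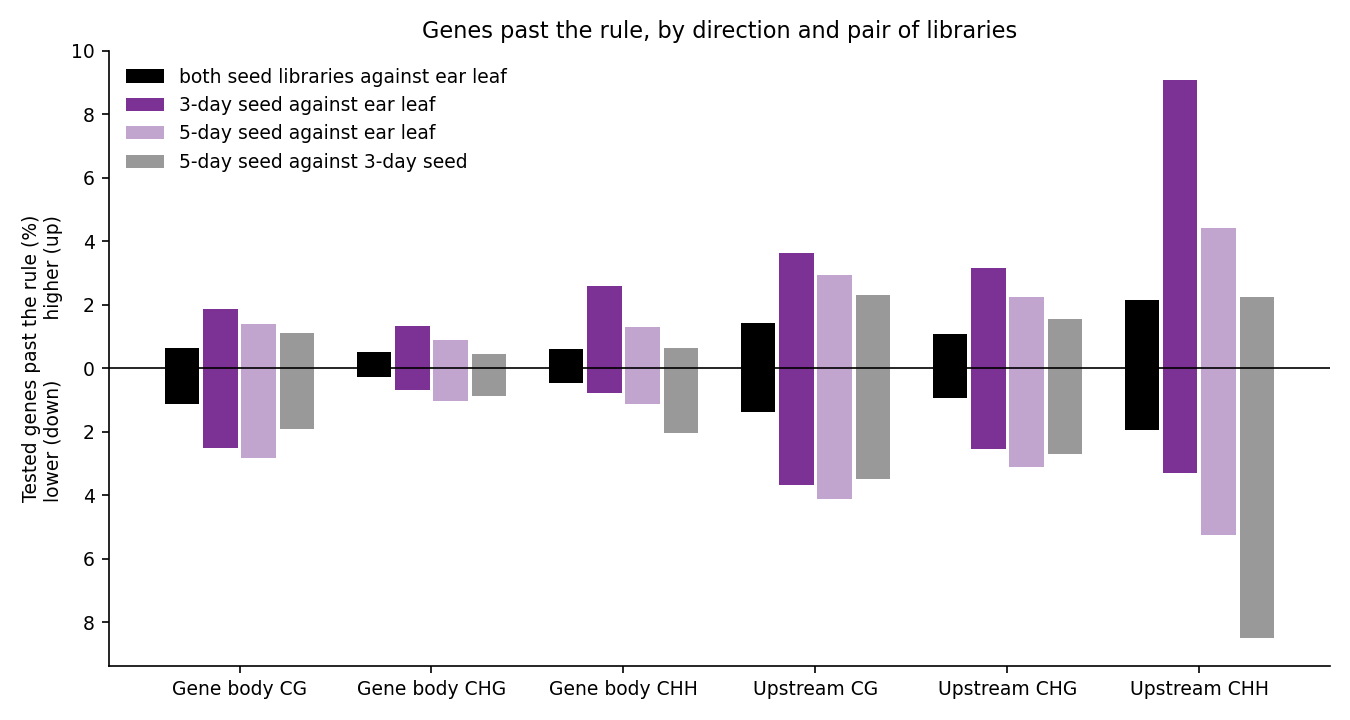
Percent of tested genes past the thresholds, higher above the axis and lower below it, for both seed libraries against leaf, each seed library against leaf, and 5-day against 3-day seed. Each single pair, the 2 seed libraries included, gave more genes than both seed libraries together. For the pairs with leaf the rule allows no fewer, because a called gene must pass in each of them.

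At the called genes themselves, the seed libraries usually lay close together. The gap between them was smaller than the smaller of their differences from leaf at 576 of the 587 genes called in body CG and at 1007 of the 1042 called in upstream CG. In CHH this held for 342 of 372 body calls and for 1432 of 1566 upstream calls. The median gap between seeds was 5.14 points in body CG, where the median of the smaller difference from leaf was 25.5 points. Because the rule asks for agreement, this closeness is partly what it selects.

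Called genes rested on fewer calls than the rest. The lowest call number of the 3 libraries had a median of 119 at genes called in body CG against 246 at all tested, and of 79 against 213 in upstream CG. Seed and leaf call numbers were balanced (each seed-to-leaf ratio within 2-fold of its median over genes) at 65.2% of genes called in body CG, against 84.1% of those tested. In upstream CG the shares were 62.0% and 83.9%, in upstream CHG 54.9% and 85.2%, and in upstream CHH 77.2% and 85.4%. With the calling repeated on genes with balanced call numbers, 385 were called in body CG, 648 in upstream CG, 412 in upstream CHG and 1211 in upstream CHH. Genes named below with unbalanced calls are marked, other than ct2, lg1 and tga1, where the balance is not given. Coordinates below are those of the deposited tables, for which no genome build was named in the labels or headers.

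Genes were ranked among those with a symbol, by the smaller of the seed differences. In gene body CG, furthest below leaf by this measure was ftr1 (GRMZM2G122793, chromosome 9, 9964958 to 9969714), which encodes a subunit of ferredoxin-thioredoxin reductase, a plastid enzyme that passes light-derived electrons to thioredoxin. Its CG level was 21.9% and 21.3% in seed on 160 and 244 calls, against 71.2% in leaf on 191 calls (95% Wilson interval 64.4 to 77.2). The larger of its Benjamini-Hochberg adjusted p-values by Fisher's exact test, here and below the one given, was 1.5e-18. Its CHG level was 4.69% and 3.35% in seed and 4.26% in leaf, so the difference was seen in CG and not in CHG. The 8 endosperm libraries lay between 17.3% and 34.8% in CG, all far below leaf.

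VTC2 (GRMZM2G359397, chromosome 3, 166381506 to 166384595), named for an Arabidopsis gene of ascorbate synthesis, had a body CG level of 16.3% and 24.1% in seed, against 54.7% in leaf (Fisher's exact test, larger adjusted p = 5.9e-05). In the other direction, orc2 (GRMZM2G117238, chromosome 5, 190481279 to 190485049), a subunit of the origin recognition complex that starts DNA replication, was at 60.5% and 53.6% in seed and 28.6% in leaf (Fisher's exact test, larger adjusted p = 9.12e-07). isp1 (GRMZM2G023194, chromosome 10, 111776610 to 111779617) was at 37.7% and 37.8% in seed and 12.9% in leaf (Fisher's exact test, larger adjusted p = 2.22e-06). At these 3 genes and at ftr1 both seeds lay on the same side of leaf by over 24 points, with body CHG of at most 21.9% in all 3 libraries. isp1 was also called lower upstream in CHH, at 2.07% and 2.98% in seed against 8.40% in leaf, the opposite direction to its body CG.

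In gene body CHG, furthest above leaf by the same measure was P4H4 (GRMZM5G843555, chromosome 2, 232364258 to 232366808), a prolyl hydroxylase gene. Its CHG level was 36.4% and 31.2% in seed, against 5.16% in leaf (95% Wilson interval 2.91 to 9.01; Fisher's exact test, larger adjusted p = 1.72e-14). prcw1 (GRMZM2G049915, chromosome 10, 36778046 to 36779877) was at 80.2% and 69.9% in seed and 44.1% in leaf, with unbalanced calls (larger adjusted p = 9.58e-14, Fisher's exact test). Both genes were also called higher in CHH.

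Furthest below leaf in body CHG were rpl35 (GRMZM2G043279), a ribosomal protein gene, and SnRK2.11 (GRMZM2G063961), a protein kinase gene of the SnRK family. rpl35 was at 22.6% and 20.5% in seed against 50.5% in leaf (Fisher's exact test, larger adjusted p = 0.000622), and its body CG level was likewise lower, at 23.5% and 19.1% against 44.0%. The body CG calls of rpl35 were unbalanced, at 102 and 288 in seed and 91 in leaf. SnRK2.11 was at 11.8% and 12.3% in seed against 38.4% in leaf (Fisher's exact test, larger adjusted p = 4.21e-11). Its body CG level of 9.81% and 13.4% in seed and 26.6% in leaf was not called.

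In gene body CHH, prcw1 stood at 34.2% and 33.2% in seed and 15.1% in leaf (Fisher's exact test, larger adjusted p = 1.98e-14). P4H4 stood at 15.3% and 13.2% in seed and 2.91% in leaf (larger adjusted p = 2.24e-09, same test). In endosperm both were lower than in seed, at 1.39% to 7.15% for prcw1 and 1.21% to 5.88% for P4H4. Seed and leaf call numbers were unbalanced at both.

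Lower in seed in body CHH were hvp1 (GRMZM5G852396) and PPR-814b (GRMZM2G416498), the second a gene of the large pentatricopeptide repeat family, whose proteins process organelle transcripts. PPR-814b was at 4.42% and 2.73% in seed against 19.6% in leaf (95% Wilson interval 18.4 to 20.9; Fisher's exact test, larger adjusted p = 3.77e-48), on 1448, 2271 and 4120 calls, which are unbalanced. hvp1 was at 1.92% and 0.80% in seed against 22.5% in leaf (larger adjusted p = 0.0141, Fisher's exact test), on 52, 125 and 49 calls, of which 1, 1 and 11 were methylated. The endosperm values of both, at most 4.2% for PPR-814b and 1.54% for hvp1, were on the seed side.

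Upstream of genes, the genes furthest above leaf in CG had a methylated leaf count of 0. EDS (GRMZM2G010356), a terpene synthase gene, had an upstream CG level of 92.9% and 71.0% in seed on 14 and 31 calls, and 0 methylated of an estimated 13 calls in leaf, which allows a level of up to 23.1% (Fisher's exact test, larger adjusted p = 0.000144). HMT-3 (GRMZM2G152470), a homocysteine methyltransferase gene, was at 88.1% and 70.0% in seed on 689 and 640 calls, and at 0 of an estimated 48 calls in leaf, which allows up to 6.25% (Fisher's exact test, larger adjusted p = 8.32e-22). Its upstream CHG level was 66.4% and 58.4% in seed and 0 of an estimated 51 calls in leaf, which allows up to 5.88%. The leaf covered the HMT-3 region with far fewer calls than the seeds did, and at EDS CHG was high in 3-day seed alone, at 94.1% against 11.1% in 5-day seed and 6.67% in leaf.

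Furthest below leaf in upstream CG were cesa5 (GRMZM2G111642), a cellulose synthase gene, and cad1 (GRMZM2G046070). cesa5 was at 29.6% and 23.4% in seed, against 91.7% in leaf on 12 calls (95% Wilson interval 64.6 to 98.5; Fisher's exact test, larger adjusted p = 0.00264). cad1 was at 9.78% and 29.1% in seed and 89.6% in leaf (larger adjusted p = 6.52e-12, Fisher's exact test). Its upstream CHG level was also called lower, at 16.7% and 39.1% in seed against 68.8% in leaf. Calls were unbalanced at both genes.

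In upstream CHG, the gene symbolised GATA (GRMZM2G022192), of the GATA zinc finger transcription factors, was at 72.2% and 70.4% in seed on 461 and 618 calls, against 6.49% in leaf on 77 calls (95% Wilson interval 2.81 to 14.3; Fisher's exact test, larger adjusted p = 8.33e-26). It was called higher in all 3 upstream contexts, with CG at 62.7% and 55.3% in seed against 6.30% in leaf, and CHH at 12.5% and 8.83% against 2.17%. Its body levels did not pass in any context. The call numbers were unbalanced here too.

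Lower in seed in upstream CHG were kin15 (GRMZM2G054418), a kinesin gene, and HSF6 (GRMZM2G059851), a heat shock transcription factor gene. kin15 was at 25.0% and 29.0% in seed, while all 14 leaf calls were methylated (lower bound of the 95% Wilson interval 78.5%; Fisher's exact test, larger adjusted p = 3.04e-05), while its upstream CG was listed at 0 in all 3 libraries. HSF6 was at 18.2% and 34.0% in seed and 87.5% in leaf (larger adjusted p = 4.55e-05, Fisher's exact test), and its upstream CG, at 14.8% and 54.0% against 88.2%, was called lower as well. kin15 had unbalanced calls and HSF6 had balanced ones.

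In upstream CHH, kin2 (GRMZM2G136838) was at 29.8% and 37.1% in seed and 3.16% in leaf (95% Wilson interval 1.46 to 6.72; Fisher's exact test, larger adjusted p = 8.39e-10). ARGOS7 (GRMZM2G113583), of a family that dampens the ethylene response, was at 38.4% and 26.7% in seed and 6.73% in leaf (larger adjusted p = 7.26e-14, Fisher's exact test). Both had balanced calls, and their endosperm ranges of 9.26% to 57.7% and 6.87% to 40.9% covered the seed values.

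Lower in seed in upstream CHH were vip3 (GRMZM2G070061), at 21.7% and 14.6% against 38.7% in leaf, and lox5 (GRMZM2G102760), a lipoxygenase gene, at 24.2% and 26.8% against 62.5%. The larger adjusted p by Fisher's exact test was 1.11e-08 for vip3 and 0.0154 for lox5. The lox5 leaf level rested on 16 calls (95% Wilson interval 38.6 to 81.5), against 1171 and 2820 calls in seed, which are unbalanced. At vip3 the calls were balanced, with 687, 643 and 473.

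**Figure D3:**
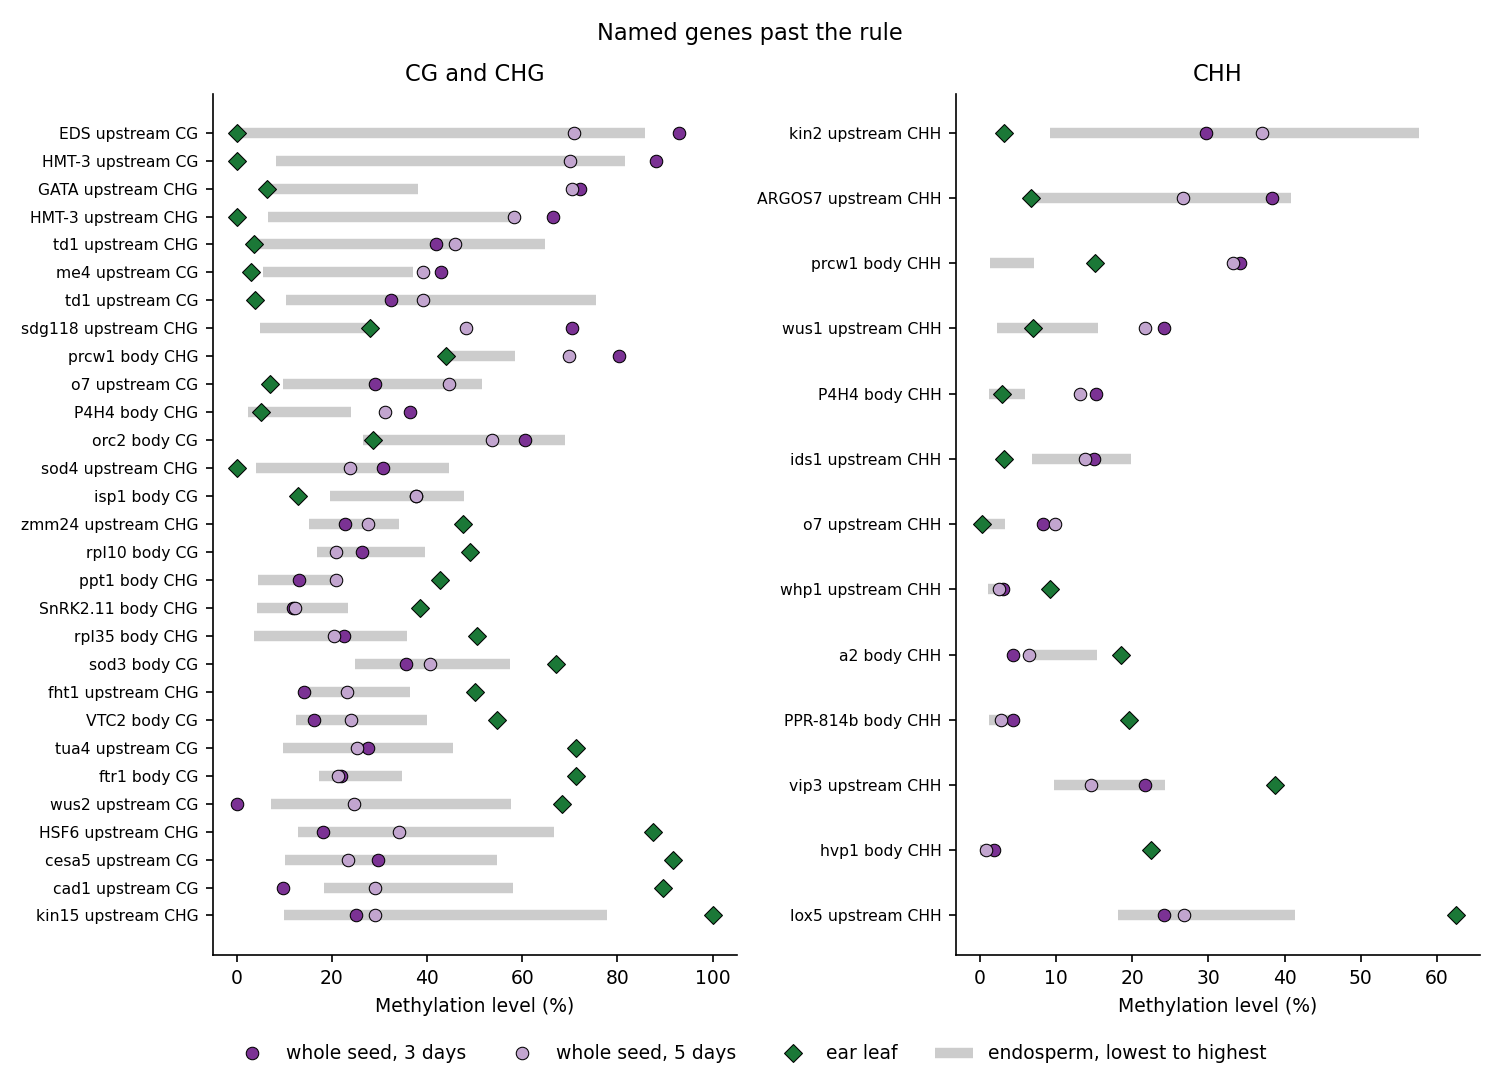
Methylation level in percent of each named gene that was called, with the region and context beside its symbol, in CG and CHG on the left and CHH on the right. Circles are 3-day and 5-day seed, diamonds are leaf and grey bars run from the lowest to the highest of the endosperm libraries; both seeds lie on the same side of leaf at every gene, as the call rule requires.

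CG and CHG calls often fell on the same genes. Upstream, 200 genes were called higher in seed in both, which is 38.5% of the CG calls and 50.3% of the CHG calls that could be tested in the other context. For lower calls it was 133 genes, 26.2% of CG and 39.3% of CHG calls. In the body, 70 genes were called higher in both (34.1% of CG and 42.7% of CHG calls), and 37 lower in both (9.89% and 41.6%). A call up in one and down in the other occurred at most 1 time in these 4 sets. The contexts come from the same libraries, and largely the same reads, so this is no independent repeat.

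Lower body CG in seed mostly came without a CHG call. At the genes called lower in body CG, the median CHG difference from leaf was -2.81 points in 3-day and -2.65 points in 5-day seed, whereas at those called higher it was 16.9 and 16.6 points. Calls in the body and upstream of the same gene seldom coincided: 12 genes were called higher in CG in both regions (6.09% of the body and 2.65% of the upstream calls) and 6 lower in both. In opposite directions, the counts were 3 and 5.

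Genes were also divided by their mean level in endosperm, which is in neither group. Genes with CG at 20% or more and CHG under 5% in the body, the pattern of body-methylated genes, numbered 2458 in the CG test. Of these, 101 (4.11%) were called lower in seed and 28 (1.14%) higher. Genes with CHG at 20% or more gave 101 of 8935 in each direction (1.13%), and genes with CG under 10% gave 22 lower (0.155%) and 4 higher (0.0282%) of 14179. The lean of body CG calls towards lower levels in seed was seen in the CG-only and low-CG classes. It was also seen in the class between these bounds, with 134 lower and 56 higher of 5867, and not in the CHG-rich class. The difference between classes was not tested. Endosperm was nearer to seed than to leaf at 63.5% of all genes tested in body CG. Classes made from endosperm therefore favour lower calls where its CG is low, so the lean by class is a description.

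In the CG-only class the mean body CG level was 37.4% and 36.8% in seed and 40.2% in leaf. None of its 2470 genes tested in body CHG was called there in either direction. The class asks for CHG under 5% in endosperm and a CHG call needs 20 points, so the definition largely fixes this. Of the body CHG calls, 74.6% of those higher and 66.3% of those lower in seed were in the CHG-rich class. That class held 8933 of the 33654 genes tested in body CHG, and its definition favours such calls too. Upstream regions were CHG-rich at 28445 of the 37079 genes tested in CG, and these held 80.1% of the higher and 69.7% of the lower CG calls. The few upstream regions of the CG-only class were also more often called lower than higher, with 21 lower (4.16%) and 3 higher (0.594%) of 505.

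**Figure D4:**
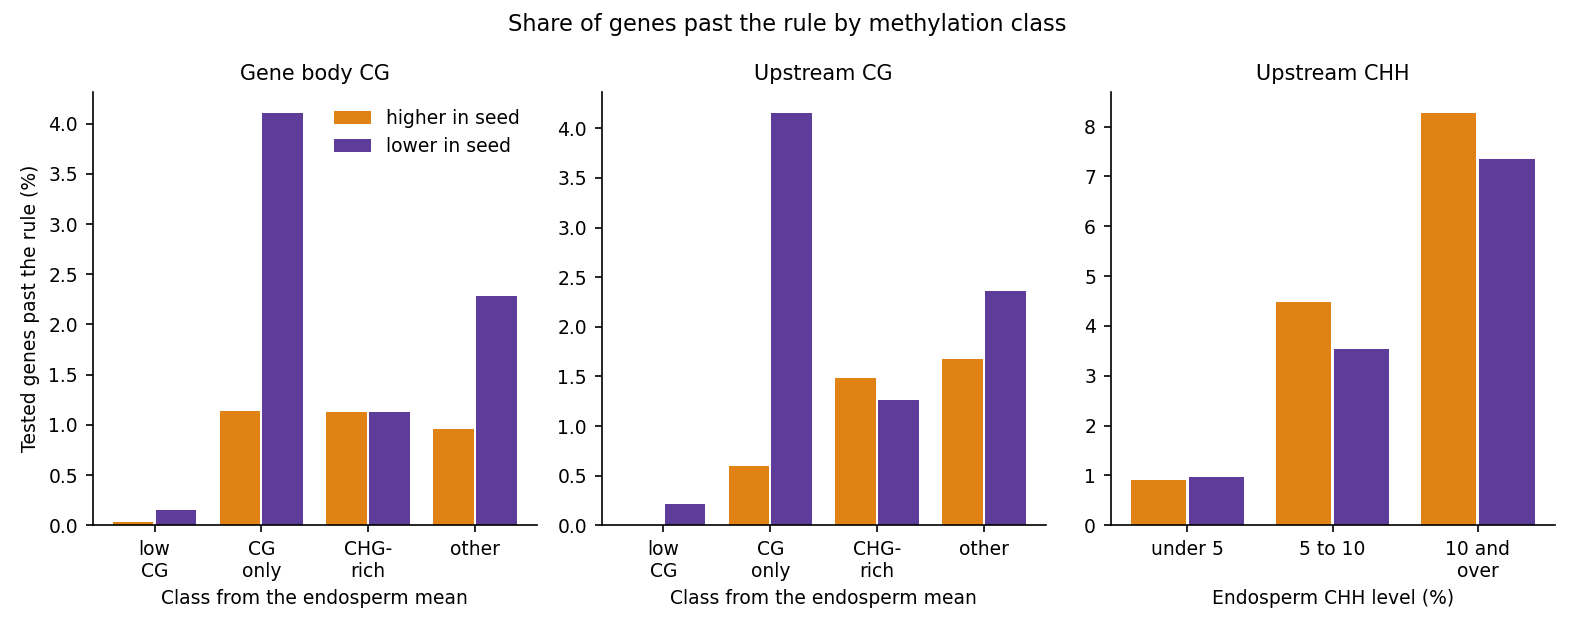
Percent of tested genes called higher or lower in seed, by class of gene from the endosperm mean (CG in gene body and upstream) and by endosperm CHH level (upstream CHH). In body CG the CG-only class stands at 4.11% lower and 1.14% higher, and in upstream CHH both directions grow with the endosperm level.

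Upstream CHH calls were more frequent where CHH methylation was high. Among genes under 5% in endosperm, 0.916% were called higher in seed and 0.960% lower. Between 5% and 10% the shares were 4.49% and 3.54%, and at 10% or more they were 8.28% and 7.35%. The same threshold of 5 points was used at all levels. In the class of 10% or more, the mean upstream CHH level was 17.5% in 3-day seed, 14.5% in 5-day seed and 15.4% in leaf, so leaf lay between the seeds.

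Endosperm was on the seed side at most genes lower in seed. Among genes called lower, the endosperm mean was nearer to seed than to leaf at 300 of 364 in body CG (82.4%), at 83 of 83 in body CHG and at 147 of 151 in body CHH (97.4%), counting genes with 10 or more calls in every endosperm library. Upstream it was 400 of 486 in CG (82.3%), 318 of 327 in CHG (97.2%) and 672 of 730 in CHH (92.1%). Over all genes tested with such endosperm calls, the share was 63.5% in body CG, 59.6% in body CHG and 51.5% in body CHH. Upstream, that share was 65.9% in CG, 61.9% in CHG and 50.6% in CHH. The genes called lower were chosen for a high leaf level beside seed, which favours such an order, so the shares are descriptions. Leaf was above every one of the other 10 libraries at 268 of those 364 genes in body CG (73.6%), beside 18.4% of all genes tested.

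Genes called higher in seed differed by context. In CG, endosperm was nearer to seed at 120 of 193 genes in the body (62.2%) and 363 of 503 upstream (72.2%). The shares over all genes tested were 63.5% and 65.9%. In CHG it was nearer to seed at 79 of 157 (50.3%) and 215 of 374 (57.5%), beside 59.6% and 61.9% of all genes tested. In CHH it was nearer to seed at 24 of 198 genes in the body (12.1%) and 195 of 814 upstream (23.96%), beside 51.5% and 50.6%. Both seed libraries lay above every endosperm library and leaf at 140 of those 198 genes in body CHH (70.7%) and at 414 of the 814 in upstream CHH (50.9%). Over all genes tested, this held at 8.92% and 9.99%. At the called genes both seeds had been chosen to lie above leaf, so these counts are descriptions as well. At the median gene called higher in body CHH, the level was 15.3% and 13.1% in seed, 3.62% in leaf and 4.54% in endosperm.

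**Figure D5:**
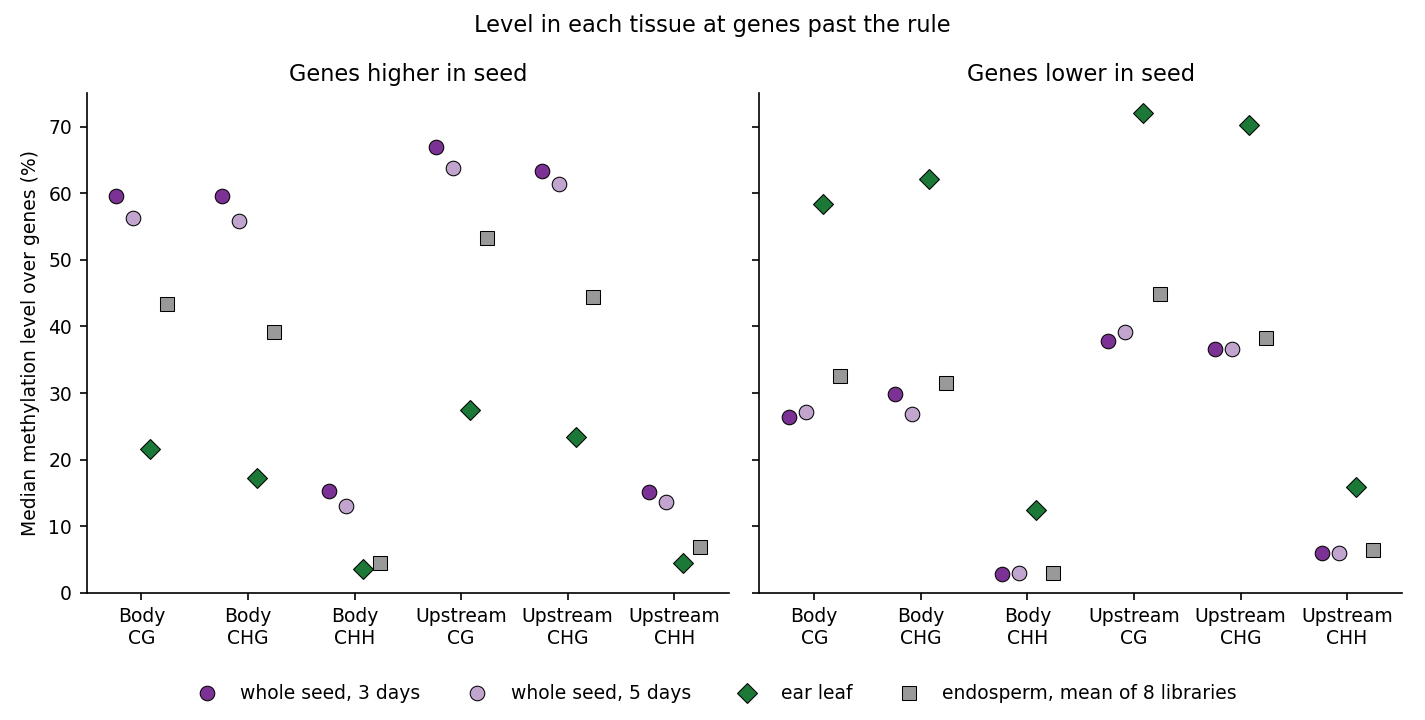
Median methylation level in percent, over genes called higher (left) or lower (right) in seed, in 3-day seed, 5-day seed, leaf and the mean of the endosperm libraries. Endosperm lies near the seeds at genes lower in seed, and near leaf at genes higher in seed in CHH, as at the body CHH median of 4.54% beside 3.62% in leaf.

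Called genes lay on all 10 chromosomes. In upstream CG the share called ran from 2.05% on chromosome 4 to 3.98% on chromosome 5, and in body CHG from 0.218% on chromosome 7 to 1.51% on chromosome 5. Genes called higher in body CHG had a median of 18 other gene starts within 500 kb to either side, against 23 at genes tested, and a median length of 2409 bases against 2904. Genes called lower in body CG were longer, at 3464 bases against 2917. These are descriptions, since neighbouring genes and depth were not separated.

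A different kind of difference stood outside the call rule. A gene listed at 0 in every context of a region may be unmethylated or without reads, and was treated as missing. Both seed libraries had CG at 20% or more with leaf listed at 0 at 107 gene bodies and 65 upstream regions. The reverse, with leaf at 20% or more and both seeds listed at 0, held at 22 gene bodies and 8 upstream regions. Leaf was the library with the fewest calls of the 3.

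Of the 271 tested genes in the lists of seed and leaf biology, 19 were called in at least 1 combination (7.01%), beside 9.95% of all genes. Of the 23 starch synthesis and sucrose supply genes, 0 were called in any of the 6 combinations by Fisher's exact test, where 0.776% to 4.11% of all genes tested were called. Their median difference from leaf was 0.47 points in body CG, against -0.34 over all genes, and 0.86 points in upstream CG, against -1.96. The nearest to a call was ivr2 (GRMZM2G089836), a soluble invertase gene, with upstream CHG at 43.1% and 41.0% in seed and 60.7% in leaf, a difference of -18.6 points that stayed under the minimum of 20 with a larger adjusted p of 1.86e-10 by Fisher's exact test. At the unchanged adjusted p threshold it passed when the minimum was 10 points. Its calls were unbalanced, at 622 and 703 in seed and 1164 in leaf.

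Of the 25 storage protein genes and regulators, o7 alone was called, which is 4.35% of the 23 tested in upstream CG and 4.17% of the 24 tested in upstream CHH, near the 2.81% and 4.11% of all genes. o7 (GRMZM2G074759, chromosome 10, 148627784 to 148629933), the opaque7 gene for an acyl-activating enzyme needed for normal zein content, had upstream CG at 29.2% and 44.6% in seed and 7.04% in leaf (95% Wilson interval 3.05 to 15.4; Fisher's exact test, larger adjusted p = 0.000319). Its upstream CHH was 8.24% and 9.92% in seed and 0.34% in leaf (larger adjusted p = 1.96e-07, same test). Upstream CHG, at 27.2% and 21.9% in seed and 2.63% in leaf, missed the minimum difference in 5-day seed. Call numbers were unbalanced.

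The transfer layer, aleurone and embryo-surrounding genes gave 0 calls of 18 tested in the body and 20 upstream, the Polycomb and imprinted genes 0 of 8, and the embryo maturation genes 0 of 14. In each, the member with the largest of the smaller seed differences did not pass Fisher's exact test in both libraries. meg2 (GRMZM2G094054), of the maternally expressed transfer-cell family, was at 68.4% and 73.1% in seed and 95.5% in leaf in body CG on 19 to 26 calls (larger adjusted p = 0.149, Fisher's exact test); its near-identical copies can share reads. rbr1 (GRMZM2G003043), a retinoblastoma-related cell cycle gene, was at 46.8% and 30.6% against 58.9% in body CG (larger adjusted p = 0.141), and lec1 (GRMZM2G011789), an embryo regulator, at 51.0% and 64.6% against 84.4% in upstream CG (larger adjusted p = 0.152), both by Fisher's exact test. All 3 were lower in both seeds than in leaf, without reaching the threshold in both.

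Of the 22 genes of the DNA methylation machinery, 1 was called, in upstream CHG (4.55%, beside 2.03% of all genes). sdg118 (GRMZM2G054380), a SET domain gene, had upstream CHG at 70.4% and 48.1% in seed and 28.0% in leaf (Fisher's exact test, larger adjusted p = 0.026), on 27, 106 and 93 calls, which are unbalanced. No member was called in the other 5 combinations. The median difference of the list was 1.71 points in upstream CHG, against -0.995 over all genes.

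Of the 27 photosynthesis genes, 1 was called lower in body CHG (4.17% of 24 tested, beside 0.776% of all genes) and 1 higher in upstream CG (3.85% of 26, beside 2.81%). ppt1 (GRMZM2G047404), the plastid phosphoenolpyruvate translocator, had body CHG at 13.2% and 21.0% in seed and 42.8% in leaf (Fisher's exact test, larger adjusted p = 2.69e-07). me4 (GRMZM2G118770), a malic enzyme gene, had upstream CG at 42.9% and 39.2% in seed and 2.94% in leaf on 34 calls, with unbalanced calls (larger adjusted p = 0.000156, Fisher's exact test). The median upstream CG difference of the 26 tested members was -5.63 points, against -1.96 over all genes. In the other combinations the list lay nearer to all genes. Its median was 0.03 against -0.345 in body CG, 0.395 against 0.19 in body CHG and 0.23 against 0.285 in body CHH. Upstream it was -0.885 against -0.995 in CHG and 0.195 against 0.405 in CHH.

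Of the 26 housekeeping genes, 2 were called lower. rpl10 (GRMZM2G467086), a ribosomal protein gene, had body CG at 26.4% and 20.8% in seed and 49.0% in leaf (Fisher's exact test, larger adjusted p = 0.0301). tua4 (GRMZM2G152466), an alpha-tubulin gene, had upstream CG at 27.5% and 25.4% in seed and 71.2% in leaf, with unbalanced calls (larger adjusted p = 9.96e-08, Fisher's exact test). The shares called, 1 of 26 in each of those combinations (3.85%), compare with 1.76% and 2.81% of all genes.

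In the anthocyanin and flavonoid pathway, 3 of 16 genes were called, each lower in seed and each in a different combination. Of all genes, 9.95% were called in at least 1 combination. whp1 (GRMZM2G151227), a chalcone synthase gene at the start of the pathway, had upstream CHH at 3.03% and 2.56% in seed and 9.17% in leaf (Fisher's exact test, larger adjusted p = 0.0358). fht1 (GRMZM2G062396), the flavanone hydroxylase, had upstream CHG at 14.2% and 23.3% against 50.0% (larger adjusted p = 0.000514). a2 (GRMZM2G345717), an anthocyanidin synthase gene, had body CHH at 4.42% and 6.52% against 18.5% in leaf (95% Wilson interval 16.5 to 20.7; Fisher's exact test, larger adjusted p = 5.79e-26). All 3 had balanced calls. With 15 members tested, 1 call is 6.67% of the list in a combination, beside 1.08% to 4.11% of all genes in those 3. The list as a whole was not lower throughout. Its median difference was 1.71 points in upstream CHH, against 0.405 over all genes. In upstream CHG it was -2.39 points against -0.995, and in body CHH -0.055 against 0.285.

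The 69 homeobox, meristem and floral regulators gave 9 calls, all upstream: 3 of 67 in CG (4.48%), 2 of 66 in CHG (3.03%) and 4 of 68 in CHH (5.88%), beside 2.81%, 2.03% and 4.11% of all genes. None of the 68 tested in the body was called, where 0.776% to 1.76% of all genes were. td1 (GRMZM2G300133), a CLAVATA-type receptor kinase gene that restricts meristem size, was higher in seed in both symmetric contexts. Its upstream CG was 32.4% and 39.1% in seed against 3.81% in leaf, and its upstream CHG 41.9% and 45.8% against 3.70% (Fisher's exact test, larger adjusted p = 0.000269 and 8.71e-07). The WUSCHEL-related genes were called in different contexts, so their directions cannot be set against each other. In upstream CG, wus2 (GRMZM2G028622) was at 0 of an estimated 34 calls and 24.6% in seed against 68.3% in leaf. There wus1 (GRMZM2G047448) was not called, at 35.0% and 37.1% in seed against 36.4% in leaf. In upstream CHH, wus1 was at 24.1% and 21.7% in seed against 6.94% in leaf on 72 calls. There wus2 was not called, at 0 of an estimated 133 calls and 1.31% in seed against 1.45% in leaf.

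ids1 (GRMZM5G862109), an AP2-type gene of spikelet fate, had upstream CHH at 15.0% and 13.8% in seed and 3.19% in leaf on 1133, 1859 and 1129 calls (Fisher's exact test, larger adjusted p = 1.74e-21). zmm24 (GRMZM2G087095), a MADS-box gene, had upstream CHG at 22.8% and 27.5% in seed and 47.6% in leaf (Fisher's exact test, larger adjusted p = 0.00173), a call lost when the medians were subtracted. The other calls, given to complete the 9, were ct2 in upstream CG, and lg1 and tga1 in upstream CHH, all lower in seed. ct2 (GRMZM2G064732) encodes a G-protein alpha subunit and lay at 66.7% and 70.1% in seed and 96.2% in leaf. lg1 (GRMZM2G036297), the liguleless gene of the leaf blade boundary, lay at 2.93% and 3.84% against 8.92%, and tga1 (GRMZM2G101511), the teosinte glume gene, at 5.92% and 7.74% against 15.6%. Calls were unbalanced at td1, wus1 and wus2 and balanced at ids1 and zmm24.

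Of the 23 genes of oxygen-limited metabolism and stress, 2 superoxide dismutase genes were called, each 4.55% of the 22 tested in its combination, beside 1.76% of all genes in body CG and 2.03% in upstream CHG. sod3 (GRMZM2G059991), for the mitochondrial manganese enzyme, had body CG at 35.6% and 40.7% in seed and 67.1% in leaf (Fisher's exact test, larger adjusted p = 1.59e-05). sod4 (GRMZM2G169890), for a copper-zinc enzyme, had upstream CHG at 30.8% and 23.9% in seed and 0 of an estimated 43 calls in leaf, which allows up to 6.98% (larger adjusted p = 0.00176, Fisher's exact test). Both had balanced calls.

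A stricter reading used limma on all 11 libraries, where the spread within seed and within endosperm, stage included, stands in for that of leaf. With the same minimum differences and an adjusted p under 0.05, it gave 29 of 28927 genes in body CG (0.1%), 4 of 29547 in body CHG (0.0135%) and 119 of 32497 in body CHH (0.366%). Upstream it gave 6 of 36014 in CG (0.0167%), 3 of 35986 in CHG (0.00834%) and 123 of 37481 in CHH (0.328%). Its CHH calls leaned lower in seed, with 42 higher and 77 lower in the body and 32 higher and 91 lower upstream, unlike those from Fisher's exact test. In body CG it gave 4 higher and 25 lower, and in body CHG 0 higher and 4 lower. Of the genes called from calls, 28 were among the 29 in body CG, 100 among the 119 in body CHH and 111 among the 123 in upstream CHH. The list of those with a symbol, 22 genes, was taken after the values were seen; ftr1, hvp1, PPR-814b, prcw1, P4H4, o7 and whp1 are among them. At ftr1 the limma adjusted p was 0.0412.

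Among the others lower in seed was DIP1 (GRMZM2G010302) in body CG, at 27.2% and 26.3% in seed and 52.5% in leaf, with endosperm at 34.2% to 44.9% (limma adjusted p = 0.0412). In body CHH, TPS2 (GRMZM2G046615) was at 0.92% and 0.88% in seed and 7.57% in leaf (limma adjusted p = 8.65e-05), and BURP6 (GRMZM2G406170) at 5.72% and 2.29% against 13.0% (limma adjusted p = 0.0115). GST38 (GRMZM2G066369), a glutathione transferase gene, was at 3.38% and 3.14% against 8.45%, and PIS (GRMZM2G110646) at 8.29% and 6.51% against 14.0%. In all 4 of these CHH cases leaf stood highest of the 11 libraries, and the highest endosperm level was 1.57% at TPS2, 2.65% at BURP6, 1.86% at GST38 and 3.28% at PIS.

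Higher in seed in body CHH were gst16 (GRMZM5G895383), also a glutathione transferase gene, at 16.2% and 11.6% in seed and 1.78% in leaf, and BX4 (GRMZM2G172491), a cytochrome P450 gene of benzoxazinoid defence synthesis, at 13.7% and 10.9% against 5.63%. NAC61 (GRMZM2G003715), a NAC transcription factor gene, was at 12.2% and 13.5% in seed and 2.73% in leaf, and MADS36 (GRMZM2G079727), a MADS-box gene, at 16.2% and 18.4% against 7.68%. The limma adjusted p was 0.0401 for gst16, 0.0326 for BX4, 0.0236 for NAC61 and 0.0324 for MADS36. At each of the 4, both seed libraries lay above all endosperm libraries and leaf.

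In upstream CHH, RNRL2 (GRMZM2G340527), a ribonucleotide reductase large subunit gene, was higher in seed, at 13.6% and 14.4% against 3.53% in leaf (limma adjusted p = 0.0422). NRH1b (GRMZM2G134149) was at 11.2% and 11.1% in seed against 4.15% in leaf, with unbalanced calls (limma adjusted p = 0.0464). Lower in seed were his2a1 (GRMZM2G305046), a histone H2A gene, at 1.62% and 2.02% against 9.49%, and mha2 (GRMZM2G019404), a plasma membrane proton pump gene with unbalanced calls, at 0.96% and 1.28% against 10.8%. elfa7 (GRMZM2G110509) was at 6.31% and 5.25% in seed and 17.01% in leaf, and GNAT32 (GRMZM2G342856) at 1.13% and 1.69% against 11.6%. The limma adjusted p was 0.0404 for his2a1 and elfa7, 0.0422 for mha2 and 0.0464 for GNAT32.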

How the data were processed

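The submitters' processing notes name cutadapt, Bowtie2 and Bismark. The sources used here give no versions or settings, no genome build, and not how far upstream regions extend. Per the file headers, the authors deposited for each gene model, region and context a count of methylated calls and a level in percent. Columns labelled CpG are called CG here. Total calls were recovered as the count divided by the level, and a whole number lay within the 0.005-point rounding of the level for all 231224 values where that rounding spans under 0.1 call. Library totals count values with a methylated count above 0, organelle models included. For a methylated count of 0, a total was derived from the calls in the remaining contexts at that gene and library.

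Each seed library was tested against leaf by Fisher's exact test (two-sided, Python 3.11.15, numpy 2.4.6, pandas 2.3.3, scipy 1.17.1, numba 0.67.0), with Benjamini-Hochberg adjustment over all nuclear genes with 10 or more calls in each of the 3 libraries. Levels were also fitted with limma 3.58.1 in R 4.3.3 on 3 and on 11 libraries, with the mean CG or CHG level at 1% or more. Fisher's exact test, the call rule and limma on 3 libraries were tested on simulated counts, with the calls drawn independently of each other. The remaining steps were not simulated. Wilson intervals at 95% and limits for a count of 0 (3 calls of the total) reflect counting error alone, because without molecular identifiers several reads may come from 1 molecule. Figures were drawn with matplotlib 3.10.9.

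Symbols came from an NCBI RefSeq table (Zm-B73-REFERENCE-NAM-5.0, names only), which matched 18775 nuclear models and gave 2636 a symbol. The 11 gene lists (273 gene models) and the members were chosen with earlier results of these data known. Named are, per region and context, the 2 symbol-bearing called genes with the largest difference each way, ranked by the smaller of the seed differences, and up to 2 called members per list, or the 1 nearest member where a list had none. ct2, lg1, tga1 and the genes named from limma on 11 libraries were added after their values were seen.

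Alternatives were a minimum of 20 calls, minimum differences of 10 and 2.5 points, limma on 3 or 11 libraries, each seed library alone, median-centred differences, counts above 0 only, chloroplast correction, pooled or median levels and, added after seeing the data, balanced call numbers.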

Additional observations from a re-analysis of the deposited data

How the results depend on the processing

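Counts of called genes are given in the order body CG, body CHG, body CHH, upstream CG, upstream CHG and upstream CHH, where the reported counts were 587, 261, 372, 1042, 751 and 1566. Minimum differences of 10 points, or 2.5 for CHH, gave 1999, 897, 894, 3146, 2301 and 3494. Leaving out either seed library gave 1410 to 1466, 646 to 679, 842 to 1160, 2609 to 2700, 1983 to 2104 and 3687 to 4721, since agreement is then not asked for. limma on 11 libraries gave 29, 4, 119, 6, 3 and 123. limma on the 3 libraries gave 0 in each. At p under 0.05 without adjustment it gave 2658, 2268, 1819, 2673, 2633 and 2320. That fit has 1 residual degree of freedom. Balanced call numbers, chosen after seeing the data, gave 385, 160, 292, 648, 412 and 1211, below the reported counts by more than 1.5 times in body CG, body CHG, upstream CG and upstream CHG. A minimum of 20 calls, centring, counts above 0 only and, for CHH, the chloroplast correction kept each count within 1.5 times. The share of calls higher in seed was 61.4% after centring and 50.6% before in upstream CG, and with limma on 11 libraries 26.0% against 52.6% in upstream CHH and 35.3% against 56.2% in body CHH. The chloroplast correction gave 772 higher and 792 lower in upstream CHH. The mean body CHH difference was 0.140 points after chloroplast correction, against 0.358 points, and the mean body CHG difference, within the spread of the seeds throughout, was -0.095 against 0.080 points. Without one or the other seed library the mean differences ran from -1.69 to -0.867 in body CG, -0.318 to 0.478 in body CHG, 0.225 to 0.491 in body CHH, -2.28 to -0.644 in upstream CG, -1.55 to -0.13 in upstream CHG and 0.0184 to 0.937 in upstream CHH. Among the named genes chosen by the rule, no called difference changed its sign under the alternatives run on them. The call rule largely fixes this, since both seeds must lie on the same side of leaf. Most of these calls were lost with limma on 11 libraries, and all of them with limma on the 3. ct2, lg1, tga1 and the genes added from limma were not rerun. No paired analysis was possible because the labels give no replicate numbers and there is 1 leaf library. With 1 leaf library, its own variation cannot be told apart from that of the tissue, and regions with few calls in leaf carry wide intervals.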
